A study of Sus scrofa with 4 samples.

Results

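The transcripts described here are those of apoptosis regulators, the genes that start, carry out or hold back programmed cell death. They were chosen by a pattern of gene symbols (caspases, the BCL2 and BIRC families, XIAP, FAIM, the FAS receptor and its partners, DIABLO, the PDCD, AIFM, TRAF, RIPK, DAPK and BNIP families), which found 24 of the 4381 genes in the table. By textbook function, 12 of the 24 were taken as death-promoting and 7 as protective, while 5 were not assigned because their main roles lie elsewhere.

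Apoptosis runs along routes that meet at the caspases, a family of proteases. In the mitochondrial route, pore-forming members of the BCL2 family open the outer membrane unless guardians such as BCL2L1 and MCL1 hold them back, and proteins released through the pores either activate caspases or disarm the inhibitor of apoptosis proteins that block them. In the death receptor route, FASLG binds FAS, the adaptor FADD recruits initiator caspases, and CFLAR and FAIM oppose the signal. A mature oocyte is nearly silent in transcription, so its mRNA is mostly a store made during growth, while attached cumulus cells can add transcripts of their own.

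The study asked what SIRT6, a nuclear deacetylase and ADP-ribosyltransferase, does while porcine oocytes mature. Its RNA-seq set holds 4 libraries of oocytes at metaphase II, the stage at which a mature oocyte waits for fertilization, with 2 libraries in each of 2 groups, named controls 1 and 2 and inhibited libraries 1 and 2. Control oocytes were cultured without the inhibitor, and SIRT6-inhibited oocytes were cultured with 100 μM SIRT6-IN-1, which enters cells and blocks the activity of the enzyme. Both groups came from ovaries of slaughtered pigs and were matured in vitro as cumulus-oocyte complexes for 42 to 44 h, with 100 oocytes collected in each group. How many oocytes went into each library, and whether the control medium carried the solvent DMSO, is not given in the sources used here. These sources do not say that the 2 libraries of a group came from separate cultures, so the p-values measure the spread between these libraries, which may be technical.

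The authors deposited read counts per gene. Totals on the listed genes were 4646129 and 3405960 counts in controls 1 and 2, with 3239200 and 4972602 in inhibited libraries 1 and 2. A count of 0 allows a level of up to 3 counts, equal to 0.646 and 0.881 CPM (counts scaled to a common library size) in the controls and to 0.926 and 0.603 CPM in the inhibited libraries. Such floors describe counting error alone, as reads copied by amplification are not separate molecules. Levels are given below as normalized CPM, that is CPM after scaling between libraries with edgeR's TMM factors. They are compared between libraries for 1 gene at a time and not between genes, since no transcript lengths were used.

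The label of the samples was checked against marker genes. All 12 listed oocyte markers were detected in all 4 libraries, and their summed level was 269848 and 272832 normalized CPM in the controls and 286155 and 292181 in the inhibited libraries, with most counts on DNMT1, the maternal DNA methyltransferase. Since DNMT1 sets this sum, it hides differences in single markers. In edgeR, 3 of the 12 were under an unadjusted p-value of 0.05, where the share of all genes would give 1.09, and these were named after their values were seen. GDF9, a growth factor of the oocyte, had 1323 and 2988 normalized CPM in the controls and 978 and 393 in the inhibited libraries, with a log2 fold change of -1.65 (SE 0.50, unadjusted p-value 0.0140, adjusted p = 0.469 in edgeR), which was -0.95 (unadjusted p-value 0.0679) without control 2. Over the alternatives, its adjusted p-value was under 0.05 with no filter, with replicate blocks and with either inhibited library left out, and it was up to 0.950 in the others. ZP2, a protein of the egg coat, was lower at -0.37 (unadjusted p-value 0.0316), at -0.26 without control 2 and -0.24 without inhibited library 2, and WEE2, a kinase of the meiotic arrest, was higher at 0.23 (unadjusted p-value 0.0211), with an adjusted p-value under 0.05 in DESeq2 alone, and its unadjusted p-value rose to 0.0654 and 0.149 without inhibited libraries 1 and 2. Of 12 blood and immune cell markers, 10 had 0 counts in all libraries. Of 21 markers of cumulus and granulosa cells, the somatic cells around the oocyte, 16 were detected, while the defining receptors FSHR and LHCGR as well as TNFAIP6, AMH and AREG had 0 counts in all libraries. Of these markers 10 were tested, 8 lower and 2 higher in SIRT6-inhibited oocytes. An unadjusted p-value under 0.05 in edgeR was reached by 0 of them, where the share of all genes would give 0.905. The groups did not overlap for 4 that were lower, INHBA, INHBB, PGR and PTGS2, and for 1 that was higher, CYP11A1, which were named after their values were seen. The share of all tested genes would give 2.22 lower and 4.01 in either direction.

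Inhibited library 1 and control 2 each differed from the other libraries in some values. Control 2 had the most detected genes, 2689 against 2411 in control 1 and 2277 and 2320 in inhibited libraries 1 and 2, and 202 genes were detected in it alone, against 73, 51 and 48. Inhibited library 1 had the lowest total, and 142 genes had 0 counts in it alone, against 75 and 16 in controls 1 and 2 and 102 in inhibited library 2. Its summed level of cumulus and granulosa cell markers was 133 normalized CPM, where controls 1 and 2 had 282 and 286 and inhibited library 2 had 299. The marker with most counts was VCAN, a matrix proteoglycan. It was at 38.8 normalized CPM in inhibited library 1 and at 82.7, 137 and 142 in control 1, control 2 and inhibited library 2. Not all of these markers were low there. HSD3B1 had 58 counts in inhibited library 1, 9 and 8 in controls 1 and 2 and 0 in inhibited library 2. GATM had 23.9 normalized CPM in inhibited library 1, 28.7 and 19.7 in controls 1 and 2 and 20.4 in inhibited library 2. HSD3B1 and GATM were named after their values were seen. In libraries made from pooled material, fewer cumulus cells and less RNA per cell cannot be told apart.

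Of all 4381 genes, 2923 (66.7%) were detected in at least 1 library and 1458 had 0 counts in all 4. Of the 24 apoptosis regulators, 17 (70.8%) were detected and 7 had 0 counts in all 4, close to the shares of all genes. Those at 0 were FAS, the death receptor for FASLG, BID, which links death receptors to mitochondria, CASP10, an initiator caspase, BCL2A1, a BCL2 family guardian, and the unassigned CASP1, PDCD1 and PDCD1LG2, which belong to inflammation and immune checkpoints. The detected regulators numbered 12 and 15 in controls 1 and 2, and 8 and 15 in inhibited libraries 1 and 2. The 8 found in inhibited library 1 were AIFM1, BCL2L1, BCL2L14, BIRC5, FAIM, PDCD10, TRAF6 and XIAP, and they were also the only regulators with counts in every library. Among all 2923 detected genes, 1945 (66.5%) had counts in every library, against these 8 of 17 regulators (47.1%). Over the 3 libraries without inhibited library 1, a choice made after the data were seen, it was 2087 of 2872 detected genes (72.7%) and 11 of 17 regulators (64.7%). With control 1, control 2 or inhibited library 2 left out instead, it was 70.9%, 72.1% and 71.2% of all detected genes. For the regulators it was 8 of 16 (50%) each time.

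The comparison of SIRT6-inhibited with control oocytes asked which of these transcripts differed in level after maturation with the inhibitor. Among the regulators, XIAP and FAIM, both protective, were lower in both inhibited libraries, with log2 fold changes near -1. BCL2L1, the guardian that held most reads of the listed regulators, was slightly higher in both inhibited libraries, and so was BCL2L14, a death-promoting relative. The core death-promoting genes, among them caspases, death receptor genes and factors released from mitochondria, were mostly at few or no counts. In the 5 of them that were tested, the SD between libraries of at least 1 group was larger than the difference between the group means.

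After edgeR's filter on low counts, 13 of the 24 regulators were tested among 2387 genes by the quasi-likelihood test of edgeR. After Benjamini-Hochberg adjustment in edgeR, 0 of 13 regulators and 0 of all 2387 genes (0%) passed at an adjusted p-value under 0.05, and the lowest in the table was 0.460. An unadjusted p-value under 0.05 was found for 216 genes (9.05%), of which 143 (5.99%) were lower and 73 (3.06%) higher in SIRT6-inhibited oocytes. Of the 13 tested regulators, 2 (15.4%), XIAP and FAIM, reached it, both lower, where the shares of all genes would give 1.18 in either direction and 0.779 lower. DESeq2's Wald test gave 37 genes of the table an adjusted p-value under 0.05, with 0 regulators among them and XIAP and FAIM at 0.371 each, and limma-voom gave 0. The groups did not overlap for 6 of the 13 regulators, 3 lower and 3 higher, against 40.1% of all tested genes, 22.2% lower and 17.9% higher, so the regulators were near the background here. Their fold changes had a median of -0.61 on the log2 scale, with 8 lower and 5 higher, beside a median of -0.04 over all tested genes. This median was not run under the alternatives. Without control 2, the medians of the protective and the death-promoting genes turned positive, at 0.18 and 0.20.

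**Figure D1:**
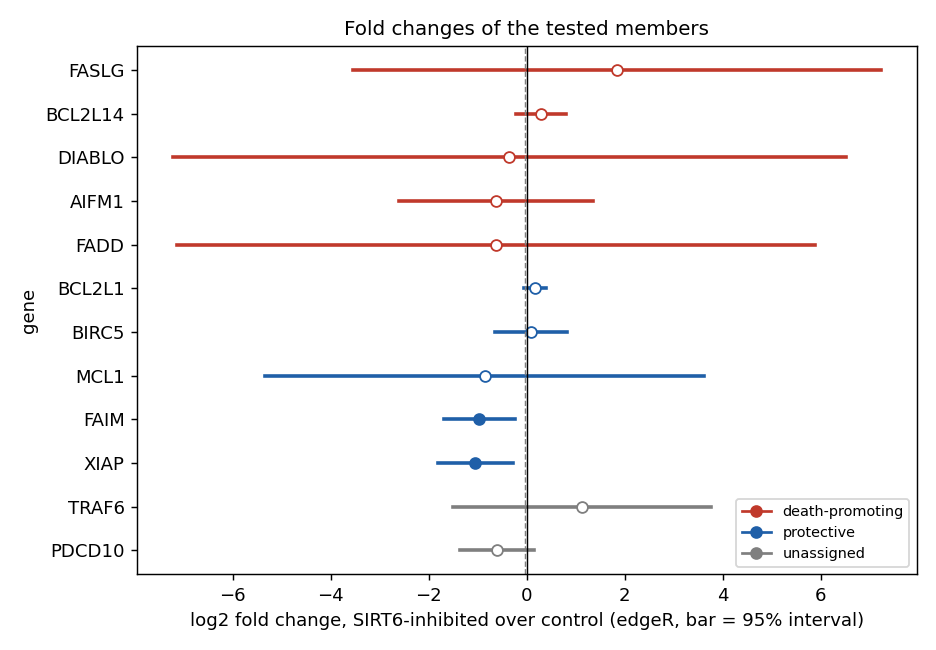
Log2 fold change of SIRT6-inhibited over control for the tested regulators named in the text (points, edgeR) with 95% intervals (bars), coloured by role, filled where the unadjusted p-value was under 0.05, with the dashed line at the median of all tested genes (-0.04). XIAP and FAIM are the filled points, and the intervals of FASLG, DIABLO, FADD and MCL1 span several log2 units on both sides of 0.

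Among the protective genes, 6 of 7 were detected and 5 were tested, 3 lower and 2 higher, with a median log2 fold change of -0.86. This median was -0.41 without inhibited library 1 and -0.44 with only the genes that had at least 10 counts in every library, and it turned to 0.18 without control 2, so it has no firm direction. XIAP encodes the inhibitor of apoptosis protein that binds and blocks caspases directly. It had 588 and 328 counts in controls 1 and 2 and 160 and 269 counts in inhibited libraries 1 and 2. As normalized CPM these were 127 and 92.3 against 49.7 and 56.0. Both controls were above both inhibited libraries, and the controls lay further from each other than the SIRT6-inhibited ones did. This gave XIAP a log2 fold change of -1.05 (standard error, SE, 0.32, 95% interval -1.82 to -0.29), with an unadjusted p-value of 0.0144 and an adjusted p-value of 0.469 in edgeR.

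FAIM encodes the FAS apoptosis inhibitory molecule, which protects cells against death receptor signals. Its counts were 748 and 389 in the controls and 220 and 339 in the inhibited libraries, or 161.5 and 109.5 normalized CPM against 68.4 and 70.6. The inhibited libraries were nearly equal, and both lay under both controls. For FAIM the log2 fold change was -0.96 (SE 0.31, 95% interval -1.69 to -0.23), with an unadjusted p-value of 0.0171 and an adjusted p-value of 0.485 in edgeR. Control 1 had the highest level of both genes. Without it, the log2 fold change was -0.81 for XIAP and -0.66 for FAIM, the unadjusted p-values in edgeR were 0.122 and 0.158, and 0 regulators remained under 0.05. With inhibited library 1 left out, they were -0.97 and -0.95, and the unadjusted p-values were 0.0296 and 0.0192. The part of cumulus cells in the levels of XIAP and FAIM was not tested.

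BCL2L1 encodes the guardian BCL-XL, which keeps the mitochondrial outer membrane closed. A shorter splice form of the same gene promotes death, and counts per gene cannot separate the forms. BCL2L1 had 13389 and 10366 counts in the controls and 10502 and 15802 in the inhibited libraries. At 2891 and 2918 normalized CPM in control and 3263 and 3291 in SIRT6-inhibited oocytes, the libraries of a group differed from each other far less than the groups did. The log2 fold change was 0.17 (SE 0.095, 95% interval -0.05 to 0.40), and edgeR gave an adjusted p-value of 0.652 and an unadjusted one of 0.111. DESeq2's Wald test gave an unadjusted p-value of 0.0294 and an adjusted p-value of 0.388, in a range of adjusted p-values from 0.388 to 0.9996 over the alternatives that keep all libraries. BCL2L1 lies at the 98.3rd percentile of the tested genes in mean count level. Among the 119 genes in the top 5% by this level, 82 were higher and 37 lower, with a median log2 fold change of 0.07. The groups did not overlap for 58 of them (48.7%), 47 higher and 11 lower, against 40.1% of all tested genes. An unadjusted p-value under 0.05 in edgeR was reached by 23, 18 higher and 5 lower, where the share of all genes would give 10.8. Their part in the difference of BCL2L1 was not tested.

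BCL2L1 also took most of the reads that fell on the listed regulators. Genes of the same families that are not listed, such as BCL2 and BAX, do not enter this share. Its share of all regulator counts was 78.6% in control 1 (95% Wilson interval 78.0 to 79.3%) and 78.6% in control 2 (77.9 to 79.3%). It was 85.2% in inhibited library 1 (84.6 to 85.8%) and 81.1% in inhibited library 2 (80.5 to 81.6%). These intervals cover counting error alone and not the spread between libraries. The share was higher in both inhibited libraries than in both controls, and it is a share of reads, not of molecules, since long transcripts give more reads. Summed over the 6 other protective genes, the level was 449 and 479 normalized CPM in the controls and 284 and 394 in the inhibited libraries. With BCL2L1 added, the sum was 3339.7 and 3397 against 3546 and 3685, so the order of the groups in a summed level turned on this gene.

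BIRC5 encodes survivin, which belongs to the inhibitor of apoptosis family and also works in the chromosomal passenger complex that steers chromosome segregation in meiosis. Its counts were 713 and 843 in the controls and 533 and 1197 in the inhibited libraries. Its levels of 154 and 237 normalized CPM in control and 166 and 249 in SIRT6-inhibited oocytes overlapped between the groups. BIRC5 had a log2 fold change of 0.09 (SE 0.30, adjusted p = 0.992 in edgeR), which ran from -0.24 to 0.43 with each library left out in turn. MCL1, another guardian of the mitochondrial membrane, had 30 and 95 counts in the controls and 0 and 87 in the inhibited libraries. The mean level of MCL1 in the other 3 libraries would give 55.1 counts in inhibited library 1. CFLAR, which blocks caspase activation at death receptors, had 46 counts in control 2 and 0 in the other libraries. MCL1 and CFLAR were named after their values were seen, as were DIABLO, FADD, CASP8, BCL2L11, DAPK2 and the regulators at 0.

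**Figure D2:**
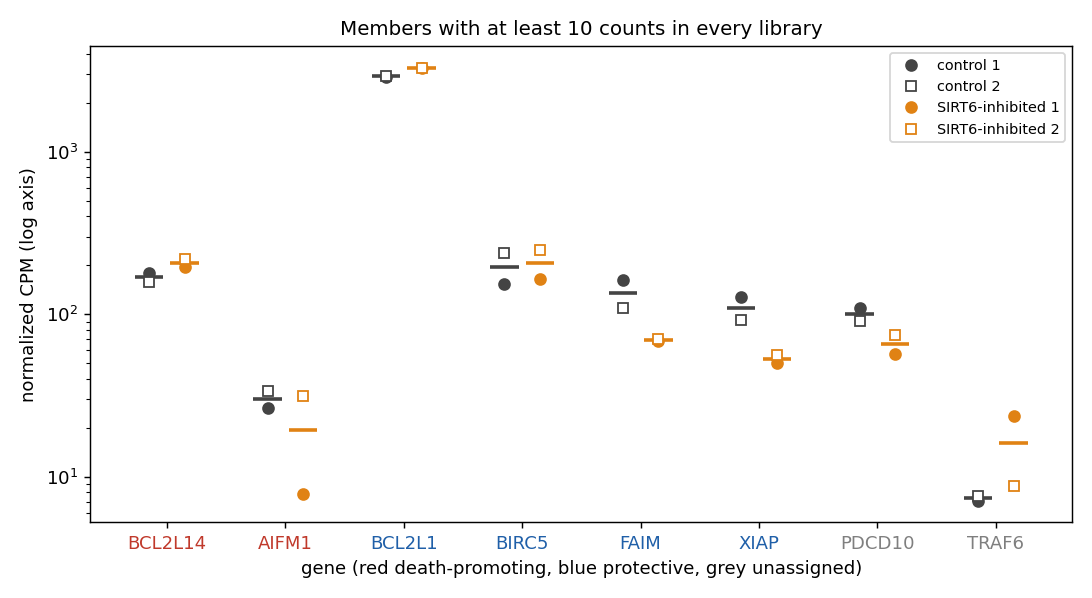
Normalized CPM on a log axis for the 8 regulators with at least 10 counts in every library, with 1 symbol per library and a line at each group mean. FAIM and XIAP sit lower in both inhibited libraries, BCL2L1 and BCL2L14 slightly higher, and AIFM1 and TRAF6 show inhibited library 1 away from the other libraries.

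Among the death-promoting genes, 9 of 12 were detected and 6 were tested, 4 lower and 2 higher, with a median log2 fold change of -0.49. None of the 6 was under an unadjusted p-value of 0.05 in edgeR, DESeq2 or limma-voom, and the lowest adjusted p-value in edgeR was 0.825. The shares of all genes would give 0.543, 0.596 and 0.581 of the 6 in these tools, so 0 was close to them. The median turned to 0.20 without control 2, to 0.36 without inhibited library 1 and to 0.09 with limma-voom, so these data give it no direction. BCL2L14 encodes BCL-G, a BCL2 family member described as promoting death. It had 829 and 561 counts in the controls and 625 and 1052 in the inhibited libraries, or 179 and 158 normalized CPM against 194 and 219. Both inhibited libraries were above both controls. The log2 fold change was 0.29 (SE 0.21, 95% interval -0.21 to 0.80, adjusted p = 0.825 in edgeR), a difference within the error of the fit.

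AIFM1 encodes the mitochondrial apoptosis-inducing factor, which also supports assembly of the respiratory chain. Its counts were 123 and 120 in the controls and 25 and 150 in the inhibited libraries. In normalized CPM this was 26.6 and 33.8 in control and 7.77 and 31.2 in SIRT6-inhibited oocytes, so inhibited library 2 lay between the controls and library 1 alone was low. AIFM1 thus had a log2 fold change of -0.62 (SE 0.83, adjusted p = 0.969 in edgeR), which was 0.05 without inhibited library 1. DIABLO, which is released from mitochondria and displaces XIAP from caspases, had 0 and 24 counts in the controls and 0 and 25 in the inhibited libraries.

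In the death receptor route, FASLG, the ligand of FAS, had 15 and 8 counts in the controls and 0 and 95 in the inhibited libraries. Its 19.8 normalized CPM in inhibited library 2 was the highest level and its 0 in inhibited library 1 the lowest, with the controls at 3.24 and 2.25 between them. The fitted log2 fold change of 1.84 had an SE of 2.25 (adjusted p = 0.963 in edgeR), and it was negative with the replicate number as a block, at -0.56, and with limma-voom, at -0.11. It was 2.83 without inhibited library 1 and turned negative without inhibited library 2, which leaves its group at 0 counts, so the direction was set by single libraries. FADD, the adaptor under the receptor, had 0 and 44 counts in the controls and 0 and 38 in the inhibited libraries. CASP8, the initiator caspase of this route, had 7 counts in inhibited library 2 and 0 in the other libraries.

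BCL2L11, which encodes BIM, an activator of the pore-forming proteins, had 18 counts in control 1 and 0 elsewhere. DAPK2, a calcium-dependent kinase linked to cell death, had 9 counts in control 2, 8 in inhibited library 2 and 0 in the others. At these counts a difference between the groups was not detectable.

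The 0 counts fell unevenly over the libraries. MCL1 and FASLG had counts in 3 libraries and 0 in inhibited library 1, where the other 3 libraries' mean levels would give 55.1 and 27.1 counts. The 27.1 counts for FASLG rest on inhibited library 2, and the controls alone, a choice made after the data were seen, would give 8.84 counts. DIABLO, FADD and DAPK2 had counts only in control 2 and inhibited library 2. Genes at low levels were often at 0 in some library throughout the table. Of detected genes with a mean of 5 to 20 normalized CPM, 177 of 570 (31.1%) had 0 counts in at least 1 library, as had 3 of 4 regulators at that level, and at 20 to 100 normalized CPM it was 9 of 646 (1.39%) and 0 of 3 regulators. Under 5 normalized CPM the share was 96.0%, and it held 6 of 6 regulators. The part of depth or of cumulus cells in these 0 counts was not tested.

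Of the 5 regulators without an assigned role, PDCD10 and TRAF6 were detected. PDCD10 encodes an adaptor of the cerebral cavernous malformation complex that binds stress-responsive kinases. It had 506 and 321 counts in the controls and 183 and 356 in the inhibited libraries, or 109.3 and 90.4 normalized CPM against 56.9 and 74.1. Both inhibited libraries were lower than both controls. The log2 fold change was -0.61 (SE 0.31, 95% interval -1.36 to 0.14, adjusted p = 0.620 in edgeR), which did not reach an unadjusted p-value of 0.05. TRAF6 encodes a ubiquitin ligase that carries receptor signals to NF-κB, and its counts were 33 and 27 in the controls and 76 and 42 in the inhibited libraries. Its levels were 7.13 and 7.60 normalized CPM in control and 23.6 and 8.75 in SIRT6-inhibited oocytes, so the group difference came mostly from inhibited library 1. Its log2 fold change of 1.13 (SE 1.10, adjusted p = 0.934 in edgeR) was 0.24 without that library.

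The positions of these genes were taken from the RefSeq annotation of Sscrofa11.1 (susScr11), the porcine build that the submitters' processing notes name beside the mouse build mm10 without giving their roles. All 24 regulators matched a protein-coding gene there. XIAP lies on chromosome X from 101399374 to 101440021 and AIFM1 on the same chromosome from 106676596 to 106708290. FAIM lies on chromosome 13 from 79397647 to 79411917, PDCD10 on the same chromosome from 106517408 to 106558959, and BCL2L1 on chromosome 17 from 35366139 to 35415798. The death receptor genes CFLAR, CASP10 and CASP8 lie close together on chromosome 15, from 104780744 to 104835631, from 104858082 to 104895941 and from 104923659 to 104948470. Of these 3 neighbours, CASP10 had 0 counts in all libraries, and CFLAR and CASP8 each had counts in 1 library.

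Other apoptosis genes outside the symbol pattern were described by the same roles. Of 20 other protective genes in the table, 19 were tested, 11 lower and 8 higher, with a median log2 fold change of -0.30. An unadjusted p-value under 0.05 was reached by 4 of them (21.1%), all lower, where 1.14 would be lower at the share of all genes. The groups did not overlap for 8 (42.1%) lower and 0 higher, against 22.2% lower and 17.9% higher among all tested genes. Of 10 other death-promoting genes, 6 were tested, 2 lower and 4 higher, with a median log2 fold change of 0.17. An unadjusted p-value under 0.05 in edgeR was reached by 0 of them, where the share of all genes would give 0.543. Taken with the regulators, 6 of 24 tested protective genes, all lower, and 0 of 12 tested death-promoting genes had an unadjusted p-value below 0.05 in edgeR, and limma-voom gave the same counts. At the shares of all genes, edgeR would give 2.17 of the 24, 1.44 of them lower, and 1.09 of the 12, so 0 of 12 was close to that share, and limma-voom would give 2.32, 1.40 and 1.16. DESeq2's Wald test gave 6 protective genes, 5 lower and BCL2L1 higher, and 0 death-promoting genes, where the shares would give 2.38 and 1.19. Leaving out a library, tried for these counts after the data were seen, gave 3 of 25 protective genes without control 1 and 2 of 23 without control 2, against 1.45 and 1.01 at the shares of all genes in those fits. Without either inhibited library the count did not fall, and without inhibited library 1 it held a gene on the higher side. The count at the share of all genes fell without either control and rose without either inhibited library. The part of single libraries in these counts was not tested. The difference between the roles was not tested, and NFKB1, XIAP and FAIM were known from earlier results when the lists were written.

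The 4 other protective genes were NFKB1, PTMA, TMBIM6 and TNFAIP8. NFKB1, which encodes part of NF-κB, a transcription factor that drives survival genes, had 73.2 and 109.8 normalized CPM in the controls and 36.7 and 26.9 in the inhibited libraries. Its log2 fold change was -1.53 (SE 0.40, adjusted p = 0.460 in edgeR). PTMA, which encodes prothymosin alpha, an inhibitor of apoptosome formation, had 39.3 and 56.9 against 13.05 and 8.96 normalized CPM. All 4 values of each gene kept the groups apart. The log2 fold change of PTMA was -2.13 (SE 0.62, adjusted p = 0.460 in edgeR).

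TMBIM6 encodes BAX inhibitor 1, a membrane protein of the endoplasmic reticulum. It had 57.9 and 120.2 normalized CPM in the controls and 35.1 and 19.6 in the inhibited libraries, so its log2 fold change was -1.71 (SE 0.52, adjusted p = 0.469 in edgeR). TNFAIP8, a protein induced by tumour necrosis factor that restrains caspase activity, had 403 and 444 against 344 and 298 normalized CPM. The groups did not overlap for either gene. The log2 fold change of TNFAIP8 was -0.40 (SE 0.17, adjusted p = 0.546 in edgeR), and its unadjusted p-value of 0.0487 rose above 0.05 in 8 of 14 alternatives, among them each library left out in turn, RLE and upper-quartile factors and DESeq2's Wald test. Control 2 had the highest level of all 4 genes, and without it none was under an unadjusted p-value of 0.05 in edgeR, with log2 fold changes of -1.21 for NFKB1, -1.84 for PTMA, -1.09 for TMBIM6 and -0.33 for TNFAIP8. In the other direction, the adjusted p-value in edgeR was 0.00413 for TMBIM6 and 0.0307 for NFKB1 without inhibited library 1, and 0.0438 for TMBIM6 with no filter, while it ran up to 0.960 for TMBIM6 and 0.950 for NFKB1 with other libraries left out.

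**Figure D3:**
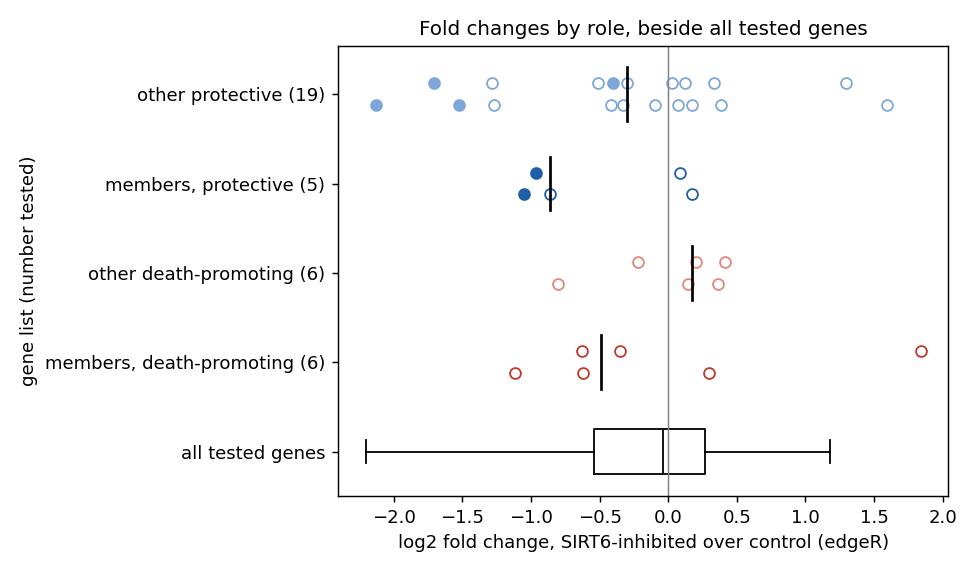
Log2 fold change of SIRT6-inhibited over control for each tested gene of 4 lists (points, filled where the unadjusted p-value in edgeR was under 0.05, black bar at the list median) above all tested genes (box with median and quartiles, whiskers at the 5th and 95th percentiles). The 6 filled points are protective genes on the lower side, and 0 of 12 death-promoting genes are filled. At the share of all genes, 2.17 of the 24 protective and 1.09 of the 12 death-promoting genes would be filled, so 0 of 12 was close to it. Of the filled genes, XIAP, FAIM and NFKB1 were known from earlier results when the lists were written.

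How far the fold changes moved with the processing differed between the regulators. XIAP stayed between -1.11 and -1.03 on the log2 scale and FAIM between -1.02 and -0.94 over the 10 alternatives that kept all libraries, with an unadjusted p-value under 0.05 in 10 of 10. The adjusted p-values of edgeR, DESeq2 and limma-voom over these alternatives were 0.155 to 0.464 for XIAP and 0.153 to 0.467 for FAIM. BCL2L1 stayed between 0.12 and 0.19 and PDCD10 between -0.66 and -0.59. Leaving out libraries moved XIAP from -1.27 to -0.81, FAIM from -1.22 to -0.66 and AIFM1 from -1.95 to 0.05.

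**Figure D4:**
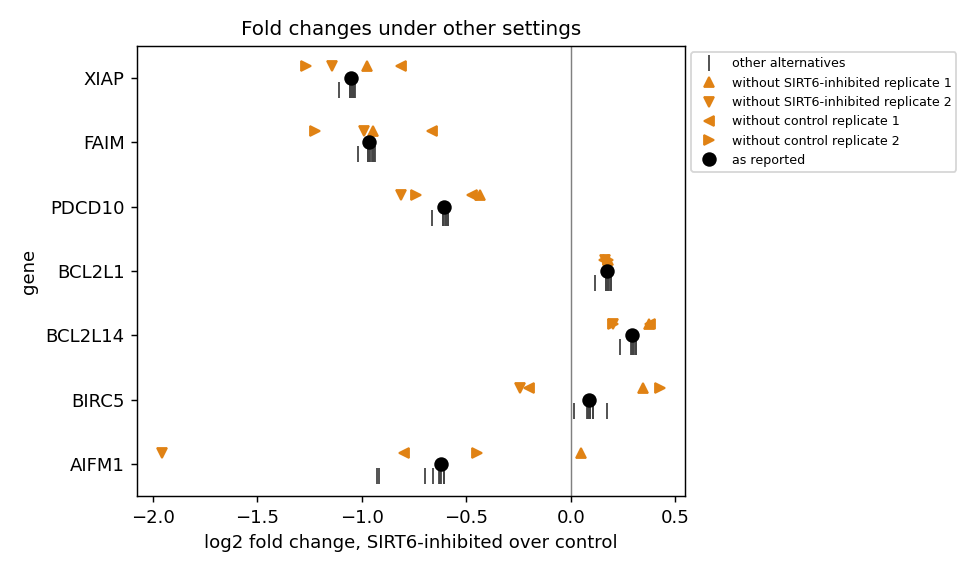
Log2 fold change of 7 regulators under each way of processing, with black points for the values reported, bars for the alternatives that kept all libraries and triangles for fits that left out 1 library. XIAP, FAIM and PDCD10 stay under 0 and BCL2L1 and BCL2L14 above 0 in each of these fits, while BIRC5 and AIFM1 lie on both sides. The groups did not overlap for XIAP, FAIM, PDCD10, BCL2L1 and BCL2L14, so leaving out a library could hardly turn their direction.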

How the data were processed

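Porcine oocytes were sequenced in 2 control and 2 SIRT6-inhibited libraries. The table deposited by the authors holds whole-number read counts for each gene symbol, not normalized. The submitters' processing notes name TopHat2 2.0.13, Cufflinks 2.2.1, Cuffnorm and Cuffdiff and the builds susScr11 and mm10, while counting tool, annotation and strand setting are not given in the sources used here, so reads of overlapping or antisense genes cannot be told apart. The labels describe RNA amplified by Smart-seq2 ahead of the NEBNext Ultra kit, while the paper's methods name this kit without that amplification. The 24 apoptosis regulators and all lists were chosen with earlier results of these data known.

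Counts were analysed with R 4.3.3 and edgeR 4.0.16: filterByExpr (minimum count 10, minimum total 15), TMM factors, and the two-sided quasi-likelihood test, adjusted by Benjamini-Hochberg over 2387 genes. Intervals are 95% from the fit. DESeq2 1.42.0 and limma-voom (limma 3.58.1) were alternatives, as were RLE and upper-quartile factors, library totals, leaving out the 10 most abundant genes, other filters, replicate blocks, core members of each role and leaving out each library. The scripts were tested on simulated counts. With 2 libraries a group, the smallest p-value of an exact permutation test is 0.333, so none was used.

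Regulators given in full had an unadjusted p-value under 0.05, or non-overlapping groups with a log2 fold change of at least 0.5 in size, or the highest mean level among the tested genes of their class, or 0 counts in both libraries of a group and at least 10 in both of the other. Other apoptosis genes were named at an unadjusted p-value under 0.05. The markers were lists for oocytes, cumulus and granulosa cells, and blood and immune cells. The values of 1 regulator and 1 marker that enter the counts are not reported here.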

Additional observations from a re-analysis of the deposited data

How the results depend on the processing

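Regulators under 20 normalized CPM were mostly at 0 in some library, and the cause was not tested. Where a library was left out, the lone library of its group was assumed to vary like the other group. XIAP and FAIM lost their unadjusted p-value under 0.05 in 1 of 14 alternatives, without control library 1, and all fits gave them the same direction. The causes of the changes given here were not tested, beyond fewer genes or libraries in the fit.

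The count of 0 genes with an adjusted p-value under 0.05 in edgeR (216 unadjusted) became 43 with no filter, 2 with at least 10 counts in every library and 37 in DESeq2, and stayed 0 in limma-voom. It ran from 0 to 77 with each library left out, 77 without SIRT6-inhibited library 1, 25 without SIRT6-inhibited library 2 and 1 without control library 2. The unadjusted count ran from 111 (without control library 2) to 302, and regulators under 0.05 from 0 (without control library 1) to 3. With the replicate number as a replicate block, 6 genes passed adjustment and 176 were under 0.05 unadjusted, 2 of them regulators; among the named genes, the block took TNFAIP8 above 0.05 unadjusted and GDF9 under 0.05 adjusted (0.00398). Libraries with the same number are not said to share a culture, and their deviations had a correlation of -0.117 across genes. Crossing the numbers, which was added after the data were seen, let 2 genes pass.

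The median log2 fold change of death-promoting genes was 0.0943 with limma-voom and ran from -6.40 (without SIRT6-inhibited library 2) to 0.364 (without SIRT6-inhibited library 1) with each library left out. The -6.40 is the fitted value of FASLG, whose inhibited group is then at 0 counts, so its size has no meaning. That of protective genes was -0.435 with at least 10 counts in every library and ran from -1.07 to 0.176 (without control library 2). In edgeR, 6 protective genes of all lists were under an unadjusted p-value of 0.05, where the share of all genes would give 2.17. This count fell without either control library, as did the count at that share. Without either SIRT6-inhibited library the count of protective genes did not fall, but the genes were not all the same. The count of death-promoting genes stayed at 0 over the alternatives that kept all libraries.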

Other observations

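The reads of XIAP and FAIM kept a similar ratio in all 4 libraries. XIAP counts divided by FAIM counts were 0.786 and 0.843 in controls 1 and 2, with 0.727 and 0.794 in inhibited libraries 1 and 2, a pair of genes chosen after their values were seen. PDCD10 counts divided by FAIM counts were 0.676 and 0.825 in the controls and 0.832 and 1.05 in the inhibited libraries, while BIRC5 counts divided by BCL2L14 counts were 0.860 and 1.503 against 0.853 and 1.14. TNFAIP3, a protective gene that restrains NF-κB signals and was named after its values were seen, had 13 and 5 counts in the controls and 0 in both inhibited libraries, which was too few for the test.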
